A study of Mus musculus with 9 samples.

Results

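The interferon-stimulated genes described here are 9 genes of the mouse antiviral programme: Isg15, Ifit1, Ifit3, Irf7, Bst2, Ifi27l2a, Ifitm3, Rsad2 and Oasl2. They were chosen by name, with earlier results of these data known. All 9 were found among the 52636 genes of a table of unique molecular identifier (UMI) counts from dissociated mouse thyroid. The table held 10186 cells and 63121420 UMIs, and the authors had given each cell 1 of 16 cell labels. Counts of each gene were summed over the cells of a label within a sample, so that the sample and not the cell was the replicate. Levels are given in CPM, the UMIs of a gene relative to the total of the summed label after scaling with TMM, the trimmed mean of M values.

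All mice were male C57BL/6 mice, 10 to 12 weeks old by the design text and 10 to 14 weeks old by the protocol, and were examined 7 days after a single intraperitoneal antibody injection. The control group, RW, received 40 mg/kg of an antibody against ragweed, a plant antigen. The group aJ1aJ2 received antibodies against the Notch ligands Jag1 and Jag2, 20 mg/kg each, and the group aN1aN2 received antibodies against the receptors Notch1 (5 mg/kg) and Notch2 (10 mg/kg). Each group had 3 samples (RW 1, 2 and 3, aJ1aJ2 1, 3 and 4, aN1aN2 1, 2 and 3), and each sample pooled the thyroids of 6 mice. The antibodies reach the whole animal, so the labels do not tie a change to blockade within the thyroid. Of these samples, RW 3 and aJ1aJ2 1 carried no number in their titles and were given here a number not used in their group.

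Type I interferons bind a receptor made of Ifnar1 and Ifnar2, which activates the kinases Jak1 and Tyk2. The signal ends in a complex with Irf9 that binds the interferon-stimulated response element in the promoters of target genes. Interferon gamma uses its own receptor, made of Ifngr1 and Ifngr2. Endothelium, macrophages and most other cells respond to both, and many targets also have a resting level without infection.

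The members cover several steps of this programme. Irf7 is a transcription factor that amplifies type I interferon production. Isg15 is a ubiquitin-like protein that is attached to other proteins or secreted. Ifit1 and Ifit3 belong to a family that binds foreign RNA and blocks its translation, Oasl2 is a relative of the 2′-5′ oligoadenylate synthetases, and Rsad2 (viperin) makes a chain-terminating nucleotide. Ifitm3 blocks viral entry from endosomes, Bst2 (tetherin) holds budding virus at the cell surface, and Ifi27l2a is a small mitochondrial or nuclear envelope protein. By GENCODE annotation on GRCm38, Isg15 lies at chr4:156199424-156200818, Bst2 at chr8:71534255-71537456, Irf7 at chr7:141262706-141266481, Ifitm3 at chr7:141009586-141010770, Ifi27l2a at chr12:103442167-103443680 and Rsad2 at chr12:26442746-26456452, all on the minus strand. Ifit1 lies at chr19:34640871-34650009, Ifit3 at chr19:34583531-34588731 and Oasl2 at chr5:114896936-114912234, all on the plus strand. Ifit3, Ifitm3, Oasl2 and Ifi27l2a each have a close relative (Ifit3b, Ifitm2, Oasl1 and Ifi27l2b), and how reads from near-identical stretches were counted was not checked.

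RefSeq promoter windows (GRCm38.p6, 250 bases before to 50 after the start) were available for 8 of the 9 members, all but Ifi27l2a. The core of the interferon-stimulated response element, written as GAAA, any 2 bases and GAAA again, was searched on both strands. It was present in 6 of the 8 (75.0%), against 1131 of 32851 promoters in the table (3.44%). The windows of Irf7 and Oasl2 held no match to these letters. The stretches are shown because they are the sequence feature that most members share. Each is written along the gene's own strand on GRCm38.p6, and capitals mark the matches, read forwards or as the reverse complement, including those that overlap.
Isg15, chr4:156200865-156200906, minus strand: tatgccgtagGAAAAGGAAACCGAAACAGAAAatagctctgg
Ifit1, chr19:34640775-34640823, plus strand: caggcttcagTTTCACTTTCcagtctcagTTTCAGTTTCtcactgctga
Ifit3, chr19:34583363-34583426, plus strand: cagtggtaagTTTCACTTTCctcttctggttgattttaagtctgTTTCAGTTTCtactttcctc
Bst2, chr8:71537577-71537612, minus strand: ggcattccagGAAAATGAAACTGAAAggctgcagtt
Ifitm3, chr7:141010716-141010742, minus strand: GAAAAGGAAActtctgaGAAACCGAAA
Rsad2, chr12:26456553-26456582, minus strand: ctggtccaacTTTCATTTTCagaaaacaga
Isg15 held 3 overlapping matches, Rsad2 held 1 and the other members shown held 2 each. In Ifitm3 the matches lay 2 to 28 bases after the annotated start, and in the others they lay before it. The shorter core of the gamma-activated sequence, TTCNNNGAA, was present in 2726 of all promoters (8.30%) and, among members, in Bst2 and Ifitm3, where it overlapped a match of the longer motif.

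Samples held 583 to 1805 cells and 3013324 to 11880793 UMIs, and aN1aN2 cells were shallower (median 2098 to 2237 UMIs per sample, against 2823 to 4149 in the other groups). Pairs of libraries shared 0 to 2 cell barcodes. The labels EC1 and EC4 held high summed levels of 5 endothelial markers in RW (12686 to 13705 and 14452 to 15653 CPM), while EC2 (4645 to 5053) and EC3 (2702 to 3575) held less, together with 695 to 2346 and 2780 to 4302 CPM of smooth muscle and pericyte markers. F held fibroblast markers (28722 to 31446 CPM), Th1 thyrocyte markers (90950 to 97424 CPM), M macrophage markers, S Schwann cell markers, T1 T and NK cell markers, and Th3 both thyrocyte and C cell markers. The titles number the samples in 3 ranges, and the aN1aN2 samples are alone in theirs, so the receptor blockade and that range cannot be told apart. M cells made up 4.25% to 5.85% of RW samples and 0.339% to 1.46% of aN1aN2 samples (exact permutation p = 0.1, the smallest that 3 against 3 samples can give).

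In control thyroid 7 of the 9 members were highest in an endothelial label by their mean, Ifi27l2a in S and Oasl2 in M (the heat map of RW levels by label). Isg15 averaged 358 CPM in EC2 and 279 in the Schwann cell label S (n = 2 samples with enough cells each), and their ranges overlapped. It stood at 173 ± 35.0 in EC1 (SD, n = 3), below S without overlap, at 159 in EC4 and at 10.4 in Th1 thyrocytes. Ifit1 and Ifit3 had the same leading label, at 246 and 132 CPM in EC2, and lay at 7.87 and 6.59 CPM in Th1. The EC2 samples were far apart for Ifit1 (118 CPM in RW 1, 373 in RW 2) and for Bst2 (845 and 1919). For Ifit3, S came next with 110 CPM, and its range overlapped that of EC2. Irf7 was highest in EC4 (181), EC1 (105) and EC2 (101), of which EC1 overlapped EC3 (69.2) and EC4 and EC2 did not. For Bst2 the order was EC2 (1382), M (830), EC1 (698), EC4 (541) and EC3 (428), with overlapping ranges between neighbours, followed below a gap by F (247). Since labels are groups of the same cells, these orders are descriptions without a test.

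**Figure D1:**
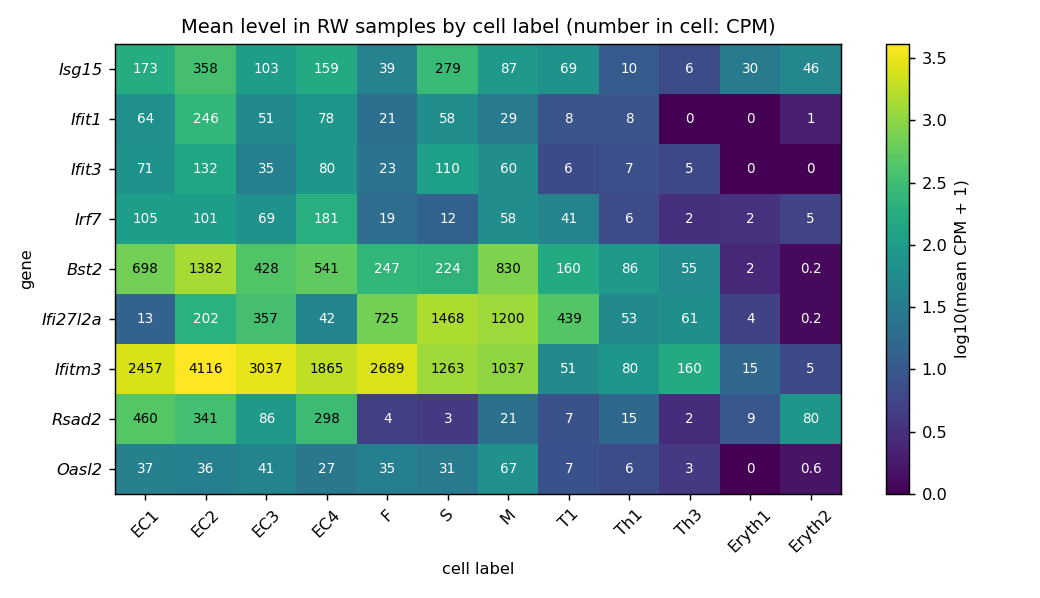
Mean CPM of the 9 members (rows) in the RW samples of each label (columns) that had at least 20 cells in at least 2 samples; colour is log10(mean CPM + 1) and the printed number is the mean CPM. Isg15, Ifit1, Ifit3, Bst2 and Ifitm3 are brightest in EC2, Irf7 in EC4 and Rsad2 in EC1, while Ifi27l2a is brightest in S and M and stands at 12.7 CPM in EC1.

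The other members departed from that order in particular labels. Ifi27l2a had its highest mean in S (1468 CPM), from samples at 352 in RW 1 and 2583 in RW 3, so that this rank rests on RW 3. M (1200 ± 116) lay above F (725) and T1 (439), and in EC1 it stood at 12.7 ± 2.11. Ifitm3 was high in every endothelial label and in F (1865 to 4116 CPM), lower in S (1263) and M (1037), and 79.9 in Th1. Rsad2 was highest in EC1 (460), EC2 (341) and EC4 (298) and then dropped to 86.3 in EC3. Next to EC3 came the erythroid label Eryth2, with 79.8 CPM of Rsad2 and, over all 3 antibody groups, a UMI in 22.6% of its cells, while Bst2 had a UMI in 0.366% of the same cells (median 7944.5 UMIs per cell). Oasl2 had its highest mean in M (66.9 CPM), but a single M cell held 17 of its 54 UMIs there (31.5%), and only RW 2 held that many, so its order of labels is not read further. Over the 12 labels, the RW profile of single members correlated with their mean standardised profile at r = 0.510 (Rsad2) to 0.972 (Ifit1), each member being part of that mean. The genes outside the 9 whose log2(CPM + 1) profile was most like the mean, among 13672 compared, were Rtp4 and Gbp3 (r = 0.983 each), St6galnac4 (0.978), Usp18 (0.976) and Plxnd1 (0.969). These are 12 labels from the same libraries, and the values are descriptions.

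The first comparison asked what blocking Notch1 and Notch2 did to these genes. In EC1, the largest endothelial label, Isg15, Irf7, Bst2, Ifit1 and Ifitm3 fell, whereas Ifit3, Rsad2, Oasl2 and Ifi27l2a did not pass the test. Across the 8 labels in which a member could be tested, 22 of 46 pairs of member and label were called at an adjusted p under 0.05, 20 lower and 2 higher. Of all genes tested in these labels, 19.9% were called (9.89% lower and 10% higher). DESeq2 called 16 of the same pairs. In EC1 5 of 9 members were lower (all genes 8.93%), in EC2 2 of 8 (6.62%), in EC3 3 of 8 (2.41%), in EC4 3 of 5 (9.93%), in F 2 of 4 (10.6%), in Th1 4 of 8 (17.3%), in Eryth2 1 of 2 (4.66%) and in Th3 0 of 2 (2.54%). The 2 that were higher were 1 of 5 in EC4 (all genes 11.2%) and 1 of 8 in Th1 (17.1%). Tests were edgeR quasi-likelihood tests fitted over all genes of a label, with Benjamini-Hochberg adjustment. The p-values measure the spread between pools of mice. In EC2 and S, RW and aJ1aJ2 had 2 samples each, so leaving one out leaves a group of 1, and its test assumes that this sample varies like the samples of the other groups.

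The median log2 change of the tested members lay below that of all tested genes in every label but Th3. It was -0.80 in EC1 (all genes -0.01), -0.90 in EC2 (-0.02), -1.41 in EC3 (0.00), -0.92 in EC4 (-0.02), -1.60 in F (0.01) and -0.53 in Th1 (0.02). In Th3 it was 0.48 (0.08), from 2 members. The members tested in a label are those that passed the filter on low counts there, so these medians do not cover all 9.

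**Figure D2:**
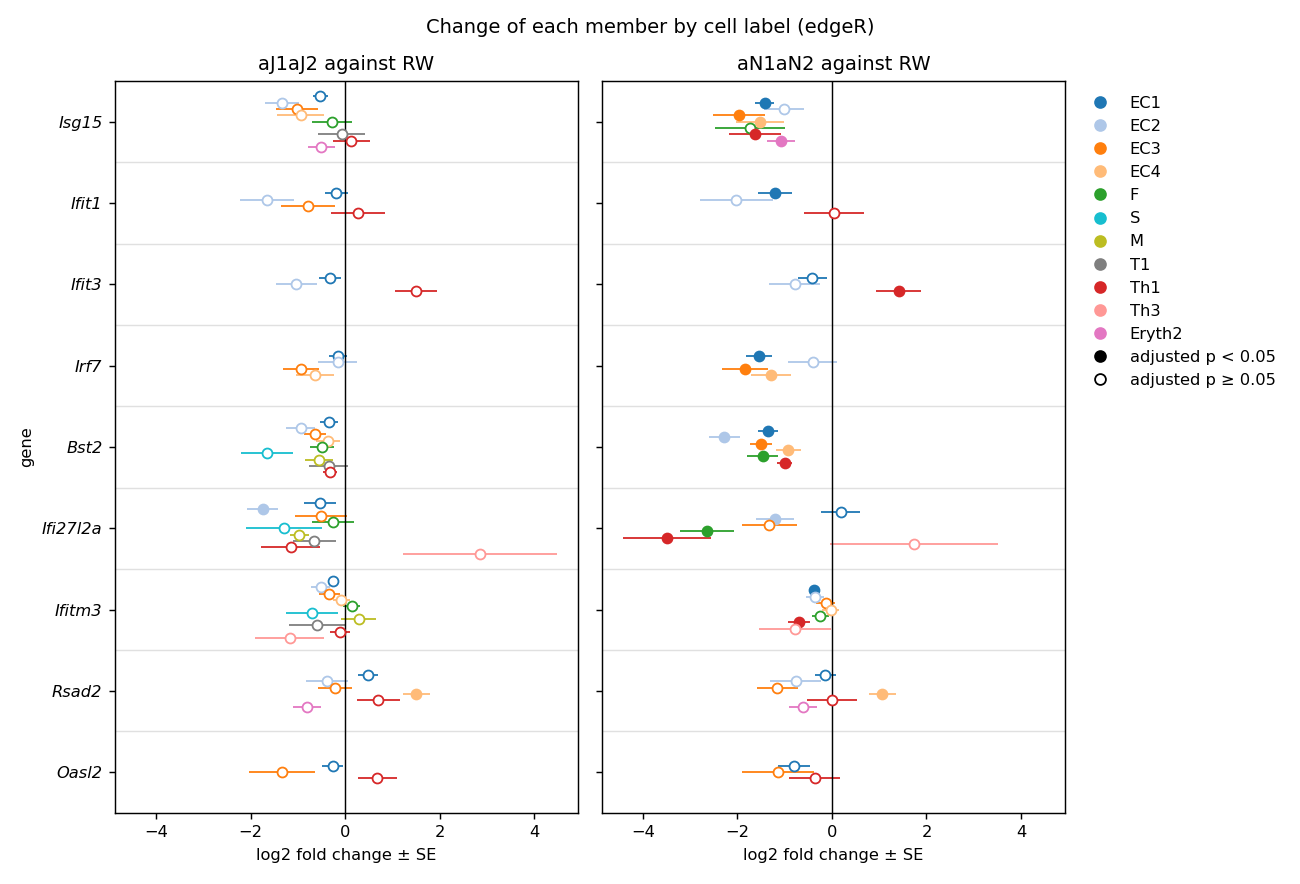
Log2 fold change ± SE (edgeR) of every tested member (rows) in each label (colours), for aJ1aJ2 against RW (left) and aN1aN2 against RW (right); filled points had an adjusted p under 0.05, and 2 changes with 3 or fewer UMIs in a group are not drawn. Filled points on the right lie below 0 except Ifit3 in Th1 and Rsad2 in EC4; on the left the only filled points are Ifi27l2a in EC2 and Rsad2 in EC4.

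Bst2 fell in all 6 labels in which it was tested. In EC1 it measured 551, 832 and 710 CPM in RW 1, 2 and 3, 724, 485 and 461 in aJ1aJ2 1, 3 and 4, and 373, 247 and 191 in aN1aN2 1, 2 and 3. Every aN1aN2 sample lay below every other sample, and the fall from RW was 1.35 on the log2 scale (SE 0.21, edgeR adjusted p = 6.32e-05). In EC2 the values were 845 and 1919 in RW 1 and 2, 608 and 797 in aJ1aJ2 3 and 4, and 219, 361 and 260 in aN1aN2. The groups did not overlap there either, with a log2 change of -2.27 (SE 0.34, edgeR adjusted p = 0.000285); RW 3 and aJ1aJ2 1 had under 20 EC2 cells and did not enter.

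Bst2 was also lower in EC3, F and Th1. In EC3 it went from 433, 493 and 358 CPM in RW to 155, 192 and 105 in aN1aN2 (log2 -1.504, SE 0.24, edgeR adjusted p = 0.00173). In F fibroblasts RW had 223, 284 and 233, aJ1aJ2 243, 129 and 169, and aN1aN2 107, 39.8 and 136 (log2 -1.46, SE 0.33, edgeR adjusted p = 0.00408). In Th1 thyrocytes, where the gene is low, RW had 83.6, 91.1 and 83.5, aJ1aJ2 77.4, 52.4 and 79.4, and aN1aN2 44.4, 40.6 and 43.5 (log2 -0.9995, SE 0.16, edgeR adjusted p = 0.000248). In these labels the aN1aN2 and RW samples did not overlap. In EC4 the aN1aN2 samples sat close together at 273, 281 and 286 CPM, below RW at 530, 697 and 395 (log2 -0.92, SE 0.26, edgeR adjusted p = 0.0107), while aJ1aJ2 spread from 259 to 593. The EC4 call was lost with DESeq2 (adjusted p = 0.0875) and without RW 2 (0.0723), and the other 5 Bst2 calls were kept in every processing alternative.

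Irf7, the transcription factor among the members, fell in 3 of the 4 labels in which it was tested. In EC1 it measured 75.8, 106 and 132 CPM in RW, 97.8, 108 and 79.5 in aJ1aJ2, and 45.7, 37.5 and 22.3 in aN1aN2. The aN1aN2 samples lay below all others (log2 -1.54, SE 0.27, edgeR adjusted p = 0.000321). In EC3 the values were 71.9, 84.9 and 50.8 in RW and 8.60, 19.2 and 27.9 in aN1aN2 (log2 -1.85, SE 0.49, edgeR adjusted p = 0.0363). In EC4 RW had 124, 222 and 198, aJ1aJ2 285, 67.0 and 101, and aN1aN2 100, 30.4 and 76.2 (log2 -1.28, SE 0.42, edgeR adjusted p = 0.0304). The EC3 call rested on few UMIs (97 in RW, 8 in aN1aN2) and was lost without RW 1, RW 2 or any aN1aN2 sample (adjusted p 0.071 to 0.132) and with DESeq2 (0.0735). The EC4 call was lost without RW 2, RW 3, aN1aN2 2 or aN1aN2 3 (0.0559 to 0.143), with DESeq2 (0.197) and with the sample numbers as a replicate block in the fit (0.0516). In EC2 Irf7 had 88.6 and 114 CPM in RW and 103, 75.2 and 23.6 in aN1aN2, which overlapped (adjusted p = 0.67).

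Isg15 was called lower in 5 of 7 labels, most firmly in EC1. There it measured 133, 188 and 198 CPM in RW, 139, 114 and 114 in aJ1aJ2, and 52.6, 59.0 and 85.9 in aN1aN2. The aN1aN2 samples were again below all others (log2 -1.43, SE 0.21, edgeR adjusted p = 3.66e-05). In EC3 RW had 65.9, 156 and 88.1 and aN1aN2 0, 51.1 and 20.9 (log2 -1.97, SE 0.55, edgeR adjusted p = 0.0463). In Th1 RW had 8.21, 12.1 and 10.7, aJ1aJ2 16.7, 5.82 and 13.4, and aN1aN2 2.74, 5.45 and 0, a small level in every group (log2 -1.63, SE 0.55, edgeR adjusted p = 0.0308). In the erythroid label Eryth2, RW had 52.7, 35.7 and 49.99 and aN1aN2 16.4, 23.6 and 24.6 (log2 -1.08, SE 0.30, edgeR adjusted p = 0.0381).

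Those calls of Isg15 outside EC1 were not stable. In EC4 the 3 RW samples had 88.3, 88.9 and 301 CPM against 83.4, 53.2 and 19.0 in aN1aN2. The call there (log2 -1.53, SE 0.51, edgeR adjusted p = 0.0308) was lost without RW 3 (log2 -0.63, adjusted p = 0.548) and without aN1aN2 2 (0.0695) or 3 (0.106), with DESeq2 (0.192) and with the replicate block (0.07). The EC3 call was lost without RW 2, aJ1aJ2 3, aJ1aJ2 4, aN1aN2 1 or aN1aN2 3 (adjusted p 0.0788 to 0.171), with only these groups fitted (0.0669) and with samples of at least 10 cells (0.0862), and the Th1 call without RW 2, RW 3, aN1aN2 1 or aN1aN2 3 (0.0607 to 0.127). The Eryth2 call did not hold in 10 of 17 alternatives, including those without RW 1, RW 3, aJ1aJ2 3, aJ1aJ2 4 or any aN1aN2 sample (0.0531 to 0.151), and those with DESeq2 (1) and the replicate block (0.0726). A single Eryth2 cell of RW 3 held 18 of that sample's 30 UMIs of Isg15. Without it RW 3 stood at 20.3 CPM, within the aN1aN2 range, and the edgeR adjusted p was 0.137. In EC2 Isg15 had 248 and 467 CPM in RW and 283, 120 and 47.3 in aN1aN2 (adjusted p = 0.122; called without RW 1, which leaves 1 RW sample, 0.0418, without aN1aN2 1, 0.0301, and with no count filter, 0.0438). In F it had 30.8, 57.8 and 28.5 against 25.2, 6.63 and 0 (adjusted p = 0.12; called with no count filter, 0.0441).

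**Figure D3:**
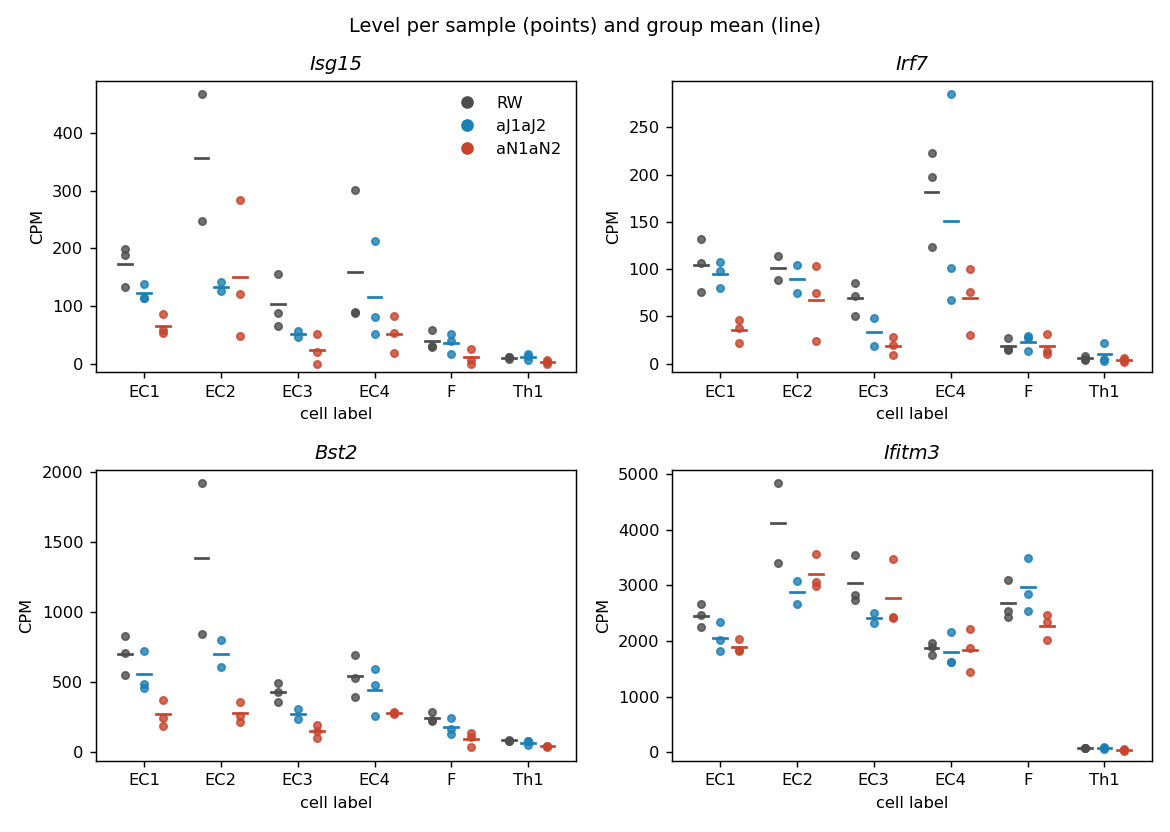
CPM per sample (points) and group mean (lines) of Isg15, Irf7, Bst2 and Ifitm3 in 6 labels; RW grey, aJ1aJ2 blue, aN1aN2 red, samples with under 20 cells of a label left out. In EC1 the red points of Isg15, Irf7 and Bst2 lie below all grey and blue points, while the Ifitm3 groups lie close together on a linear axis.

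Of the pairs of Ifit1, Ifit3 and Oasl2 with an endothelial label, only Ifit1 in EC1 was called. Ifit1 in EC1 measured 35.2, 91.6 and 65.9 CPM in RW, 53.8, 67.1 and 46.5 in aJ1aJ2, and 20.6, 32.2 and 31.8 in aN1aN2. Its fall (log2 -1.20, SE 0.36, edgeR adjusted p = 0.0239) was lost without RW 2, aN1aN2 1, aN1aN2 2 or aN1aN2 3 (adjusted p 0.0572 to 0.146). Ifit3 in EC1 had 40.6, 86.2 and 87.2 in RW and 50.3, 32.2 and 82.8 in aN1aN2, which overlapped (log2 -0.42, SE 0.30, adjusted p = 0.391). Oasl2 in EC1 was 33.2, 49.3 and 27.3 in RW and 22.9, 16.1 and 22.3 in aN1aN2, without overlap but not past the threshold (log2 -0.80, SE 0.34, adjusted p = 0.112; called without RW 3, 0.0384). In EC2 Ifit1 had 118 and 373 CPM in RW 1 and 2 and 51.5, 0 and 142 in aN1aN2, which overlapped (log2 -2.02, SE 0.77, edgeR adjusted p = 0.0918). That pair was called with the replicate block (0.0337), with no count filter (0.000727) and without aJ1aJ2 3 (0.0102) or aJ1aJ2 4 (0.0056). It was also called without RW 1 (0.0115), with RW 2 then the only control sample. In EC3 it had 59.9, 80.8 and 13.4 in RW and 17.2, 6.39 and 0 in aN1aN2, the latter from 3 UMIs (edgeR adjusted p = 0.0787), and was called with the block (0.0149), with no count filter (0.000399) and without RW 3 (0.00762). Oasl2 was tested in EC1, EC3 and Th1 and was called in none of them by edgeR or DESeq2, with 1 unadjusted p under 0.05.

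Ifit3 rose in Th1, and 1 cell carried much of that. Th1 values were 3.99, 10.1 and 5.66 CPM in RW, 17.7, 8.84 and 26.8 in aJ1aJ2, and 9.88, 24.2 and 10.9 in aN1aN2 (log2 1.41, SE 0.47, edgeR adjusted p = 0.0307). A single cell of aN1aN2 2 held 25 of the group's 67 UMIs (37.3%), and no other cell held over 2. Without it that sample stood at 9.16 CPM and the change was 0.75 (adjusted p = 0.218), an alternative chosen after seeing the data. The call was also lost without RW 1 (0.108), RW 3 (0.0837) or aN1aN2 2 (0.298), with DESeq2 (0.0527) and with the replicate block (0.0524).

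Ifi27l2a fell in F fibroblasts and in Th1 thyrocytes. In F it measured 831, 1041 and 304 CPM in RW, 863, 551 and 431 in aJ1aJ2, and 271, 13.3 and 41.9 in aN1aN2, so that RW and aN1aN2 did not overlap but approached each other at 304 and 271. The log2 change was -2.65 (SE 0.56, edgeR adjusted p = 0.00251), and the call was kept in every processing alternative and without the cell with most UMIs. In Th1 RW had 21.5, 117 and 20.1, aJ1aJ2 40.3, 16.3 and 5.25, and aN1aN2 5.49, 1.82 and 4.84 (log2 -3.49, SE 0.94, edgeR adjusted p = 0.00937). In RW 2 a single Th1 cell held 155 of the group's 373 UMIs (41.6%). Without that cell RW 2 stood at 12.8 CPM, and the change was -2.26 (SE 0.62, adjusted p = 0.0106). The Th1 call was lost without aN1aN2 2 (0.0544).

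In the endothelial labels Ifi27l2a was called under receptor blockade in EC2 alone. EC2 had 248 and 156 CPM in RW, 66.0 and 59.5 in aJ1aJ2, and 116, 60.2 and 94.5 in aN1aN2 (log2 -1.20, SE 0.39, edgeR adjusted p = 0.0499), and that call was lost in 12 of 16 alternatives. Those included leaving out RW 1, aJ1aJ2 3 or any aN1aN2 sample (adjusted p 0.0565 to 0.464). In EC1 it had 14.6, 13.1 and 10.4 in RW and 11.4, 16.1 and 15.9 in aN1aN2 (log2 0.19, SE 0.41, adjusted p = 0.812). In EC3, the endothelial label with its highest mean, RW had 375, 533 and 163 and aN1aN2 138, 6.39 and 293, which overlapped (log2 -1.33, edgeR adjusted p = 0.216), and the pair was called with no count filter (3.94e-06). In Th3, 1 cell held 209 of the label's 282 UMIs of Ifi27l2a (74.1%), which makes its levels there (0 to 1036 CPM per sample) uninformative about the groups.

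**Figure D4:**
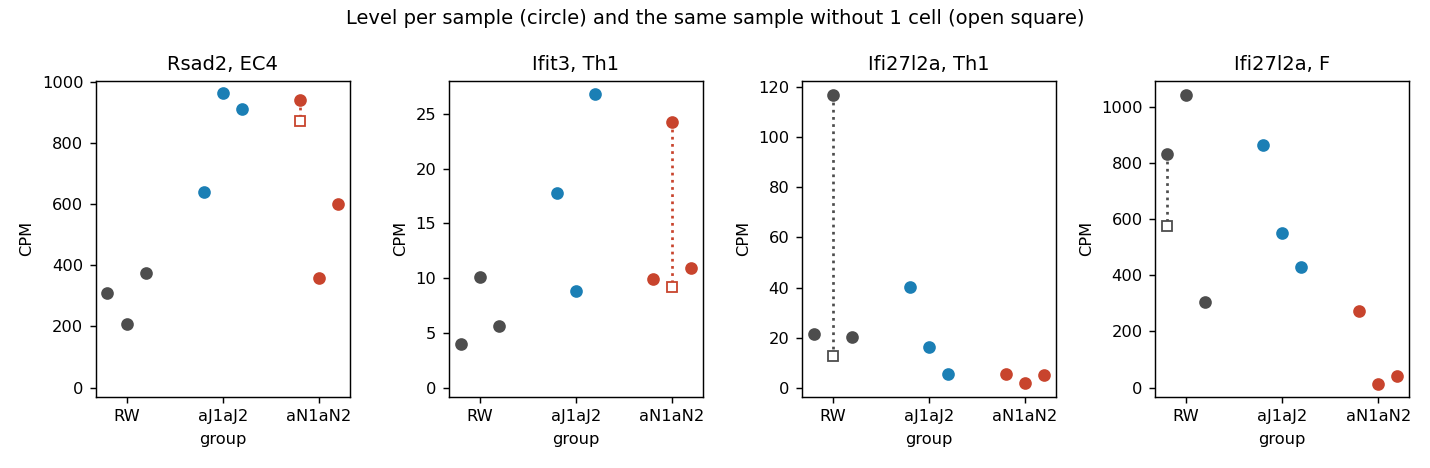
CPM per sample (circles) of Rsad2 in EC4, Ifit3 in Th1, Ifi27l2a in Th1 and Ifi27l2a in F; the open square is the same sample without the 1 cell that held most UMIs of the gene in the higher group of aN1aN2 against RW. Leaving out that cell takes Ifit3 in aN1aN2 2 from 24.2 to 9.16 CPM and Ifi27l2a in RW 2 of Th1 from 117 to 12.8 CPM, and moves Rsad2 little.

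Ifitm3, the most abundant member, changed little. In EC1 it measured 2243, 2660 and 2467 CPM in RW, 2347, 1820 and 2009 in aJ1aJ2, and 1821, 1845 and 2031 in aN1aN2 (log2 -0.37, SE 0.11, edgeR adjusted p = 0.0264). RW and aN1aN2 did not overlap, yet the call was lost without RW 2 (0.087), aN1aN2 1 (0.1) or aN1aN2 2 (0.104). In Th1 it had 83.6, 79.0 and 77.0 in RW and 47.7, 67.3 and 25.4 in aN1aN2 (log2 -0.70, SE 0.24, edgeR adjusted p = 0.0322). That call was lost without any RW sample, aN1aN2 1 or aN1aN2 3 (0.0573 to 0.109). It was also lost without the Th1 cells that held at least 3 UMIs of C1q macrophage genes (log2 -0.15, adjusted p = 0.768). In the other 5 labels its log2 change lay between -0.78 (Th3) and -0.02 (EC4) with no call by edgeR, while DESeq2 called it lower in EC2 (log2 -0.56, adjusted p = 0.035).

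Rsad2 went the other way in EC4. It measured 309, 208 and 377 CPM in RW, 641, 965 and 911 in aJ1aJ2, and 940, 357 and 600 in aN1aN2. Under receptor blockade it rose, with a log2 change of 1.07 (SE 0.28, edgeR adjusted p = 0.00735), although aN1aN2 2 lay within the RW range. Under ligand blockade it rose by 1.502 (log2, SE 0.28, edgeR adjusted p = 0.00763), with no overlap. The receptor call was lost without aN1aN2 1 (log2 0.64, adjusted p = 0.125) and the ligand call without aJ1aJ2 3 (log2 1.40, adjusted p = 0.096). Both comparisons use the same RW samples. In EC1, where the gene is highest, RW had 351, 533 and 496, aJ1aJ2 352, 770 and 793, and aN1aN2 469, 324 and 458, and neither blockade passed the test (adjusted p = 0.326 and 0.737). Under ligand blockade Rsad2 in EC1 was called higher without aJ1aJ2 1 (log2 0.77, adjusted p = 0.00432) and with no count filter (0.00804). Under receptor blockade its change was negative in 4 of 6 labels. In EC3 RW had 79.8, 74.8 and 104 CPM and aN1aN2 17.2, 70.3 and 20.9, without overlap (log2 -1.16, SE 0.43, edgeR adjusted p = 0.143). The EC3 pair was called lower with no count filter (0.049) and without aN1aN2 2 (log2 -2.12, 0.0419).

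The second comparison asked what blocking Jag1 and Jag2 did. Ligand blockade moved few members past the threshold: 2 of 57 pairs in 11 labels were called, Rsad2 higher in EC4 and Ifi27l2a lower in EC2. Of all genes in these labels 0.664% were called, 0.334% higher and 0.33% lower. In EC4 0.516% of all genes were higher and in EC2 0.837% were lower. At an unadjusted p under 0.05 there were 19 pairs, DESeq2 called 1 of the 57, and 47 of the 57 had a negative log2 change. The median log2 change of the tested members was -0.27 in EC1, -0.99 in EC2, -0.71 in EC3 and -0.36 in EC4. It was -0.66 in Eryth2, -0.27 in F, -0.56 in M, -1.47 in S and -0.47 in T1. In Th1 it was 0.20 and in Th3 0.84, from 2 members. The medians of all tested genes lay between -0.02 and 0.02. Ifi27l2a in EC2 fell by 1.74 on the log2 scale (SE 0.33, edgeR adjusted p = 0.0107, values above). This call was lost without RW 1 (0.39) and without aJ1aJ2 4 (0.0572), each of which leaves 1 sample in a group, and when samples with at least 10 cells entered (0.288). Among pairs that did not pass, Isg15 in EC1 had a log2 change of -0.53 (SE 0.16, adjusted p = 0.116) and in EC2 of -1.34 (SE 0.37, adjusted p = 0.0679). Bst2 had -0.34 in EC1 (SE 0.19, adjusted p = 0.487) and -0.94 in EC2 (SE 0.30, adjusted p = 0.113). Isg15 in EC1 was called without RW 1 (0.0443), without aJ1aJ2 1 (0.0491) and with no count filter (0.0228), and in EC2 with no count filter (0.00725). Bst2 in EC2 was called with no count filter (0.0347), and, with 1 sample left in a group, without RW 1 (log2 -1.45, 0.0138) and without aJ1aJ2 4 (0.0364). Of the positive changes that did not pass, the largest was Ifi27l2a in Th3 (log2 2.85), where 1 cell held 209 of the label's 282 UMIs. Rsad2 in EC1 and Ifitm3 in M and F were also positive. In Th1 3 of 8 members had a negative change and the median was 0.20. The positive changes there included those of Ifit3 (log2 1.499, SE 0.44, adjusted p = 0.145) and Rsad2. Ifit3 and Rsad2 in Th1 were called with no count filter (2.76e-05 and 0.0353), as was Ifi27l2a in Th3 (3.60e-06). Lower with no count filter were Ifi27l2a in Th1 (log2 -1.15, edgeR adjusted p = 1.25e-06) and Ifit1 in EC2 (0.00296). Without aJ1aJ2 3, which leaves 1 aJ1aJ2 sample, Ifit1 in EC2 had a log2 change of -2.51. In M, Isg15 measured 73.6, 118 and 70.1 CPM in RW and 7.94, 34.6 and 6.98 in aJ1aJ2 and did not pass the count filter. With no count filter it was called (log2 -2.17, edgeR adjusted p = 0.0108). A single M cell held 30 of its 65 UMIs (46.2%), and only RW 2 held that many, so the level of RW 2 rests on that cell. Ifi27l2a in M had 1325, 1179 and 1095 CPM in RW and 683, 661 and 495 in aJ1aJ2 (log2 -0.97, SE 0.20, adjusted p = 1), without overlap; 0 of 2097 genes were called in M by edgeR (0%). In S, Isg15 had 229 and 330 CPM in RW 1 and 3 and 11.4 and 0 in aJ1aJ2 3 and 4 (adjusted p = 0.195), where aJ1aJ2 held 1 UMI and no fold is given. This pair was called with no count filter (edgeR adjusted p = 8.44e-05). It was also called with the title number range as covariate (3.88e-05), without RW 1 (0.000697) and without RW 3 (1.50e-05), each of which leaves 1 RW sample to compare in S; so do the calls of Bst2, Ifitm3 and Ifi27l2a in S gained without one of these samples, whose values are not given.

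Direct comparison of the blockades gave 7 calls among 47 pairs in 9 labels, all lower in aN1aN2 than in aJ1aJ2 (all genes 12.9%, 6.52% lower and 6.42% higher), and DESeq2 called 9. In EC1 these were Irf7 (log2 -1.38, SE 0.28, edgeR adjusted p = 0.0016), Bst2 (log2 -1.01, SE 0.21, 0.00188) and Isg15 (log2 -0.90, SE 0.22, 0.00723). In EC2 Bst2 was lower (log2 -1.33, SE 0.34, edgeR adjusted p = 0.0173), in F Ifi27l2a (log2 -2.38, SE 0.56, 0.00671), and in Th1 Bst2 (log2 -0.67, SE 0.17, 0.00938) and Isg15 (log2 -1.76, SE 0.56, 0.0338). The calls of Irf7 and Bst2 in EC1 and of Ifi27l2a in F were kept in every processing alternative. Isg15 in EC1 was lost without aN1aN2 1 (0.0739). Bst2 was lost in EC2 without aN1aN2 1 (0.12) or 3 (0.0613), and in Th1 without aN1aN2 2 (0.0552) or without cells holding macrophage RNA (0.104). Isg15 in Th1 was lost without aJ1aJ2 1, aJ1aJ2 4, aN1aN2 1 or aN1aN2 3 (0.0781 to 0.135) and without cells holding macrophage RNA (0.0556). Of pairs that did not pass, Bst2 in F (adjusted p = 0.0538) was called lower with DESeq2 (0.0133), with no count filter (0.0015) and without RW 3, aJ1aJ2 3 or aN1aN2 3 (0.0285 to 0.0428). Ifit1 in EC1 was called lower with only these groups fitted (0.0155), with no count filter (0.00282) and without RW 1 (0.0191) or RW 2 (0.0447). Rsad2 in EC1 was called lower without aJ1aJ2 1 (0.000453) or RW 1 (0.0497) and with no count filter (7.31e-06). Ifitm3 was called lower in F with DESeq2 (log2 -0.67, adjusted p = 0.000773). In Th1 it was called lower by edgeR with no count filter (0.00198) and without aJ1aJ2 1 (0.021) or aN1aN2 2 (0.0295). Also lower in at least 1 alternative were Ifi27l2a and Rsad2 in Th1, Bst2 in EC3 and EC4, Ifit1 in F and Rsad2 in EC4. The antibodies differ in target and dose, and aJ1aJ2 received more antibody in total.

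Whether a change differed between EC1 endothelium and Th1 thyrocytes of the same pools was tested as an interaction. For receptor blockade 2 of 9 members were called (all genes 8.69%), Ifit3 with a lower change in EC1 than in Th1 (EC1 minus Th1 -1.84, SE 0.51, edgeR adjusted p = 0.0239) and Ifi27l2a with the opposite order (3.41, SE 1.02, 0.0381). Without the single cells named above the adjusted p-values were 0.0964 and 0.075, and DESeq2 called neither. For Bst2 the difference was -0.36 (adjusted p = 0.394) and for Isg15 0.10 (adjusted p = 0.95). For ligand blockade edgeR called 0 of 9 (all genes 0.369%), with 2 unadjusted p-values under 0.05 and 0 calls by DESeq2.

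The share of EC1 cells with a UMI is given for Isg15, Bst2 and Irf7, the members with the most firmly called falls there. Isg15 had a UMI in 42.8% ± 2.88 of RW cells, 30.9% ± 3.45 of aJ1aJ2 cells and 14.5% ± 4.78 of aN1aN2 cells (SD, n = 3 samples). Since depth differed, each cell was also reduced to 1000 UMIs, which gave 12.7%, 10.8% and 7.40%, with overlapping samples. For Bst2 the shares were 87.7%, 80.1% and 54.9%, and 45.7%, 40.6% and 21.7% after thinning; the thinned RW samples (39.8% to 48.6%) and aN1aN2 samples (16.7% to 25.6%) did not overlap. Irf7 went from 35.5% to 12.2% as sequenced and from 9.51% to 4.84% thinned, where the samples overlapped. For Rsad2 in EC4 the shares were 19.3% in RW, 33.6% in aJ1aJ2 and 29.8% in aN1aN2, and 16.2%, 31.9% and 26.6% after thinning, which left out 142, 132 and 219 shallower cells. The other members did not all order RW, aJ1aJ2 and aN1aN2 in this way in EC1. Rsad2 had a UMI in 68.4%, 69.4% and 58.3% of cells, Ifi27l2a in 5.67%, 2.95% and 5.23%, and Ifit3 after thinning in 3.97%, 8.10% and 2.53%. The erythroid labels give the share in other cells of the same libraries. Bst2 had a UMI in 78.3% of all EC1 cells (median 3994 UMIs), 0.602% of Eryth1 cells (median 1682) and 0.366% of Eryth2 cells (median 7944.5). Isg15 had one in 32.4%, 4.01% and 11.3%, Irf7 in 29.5%, 0.301% and 2.20%, and Rsad2 in 68.1%, 2.11% and 22.6%.

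Some single cells held UMIs of several members. Of 5 low members (Isg15, Ifit1, Ifit3, Irf7 and Oasl2), at least 2 were detected in 260 of 661 EC1 cells of RW (39.3%), 184 of 678 of aJ1aJ2 (27.1%) and 35 of 264 of aN1aN2 (13.3%), at median depths of 4813, 3558 and 2752 UMIs. Depth falls along the same order as these shares, and its part in them was not tested. No share expected from independent detection was set beside them, so they do not show whether the members occur together.

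The rest of the pathway was described with 104 matched genes in 7 lists: ligands, receptors, signal relay, nucleic acid sensors, brakes, other type I interferon-stimulated genes, and interferon gamma GTPases and chemokines. The 10 interferon genes on the ligand list were almost absent from the data, and no other interferon gene was looked up. Of these 10 genes, 8 had 0 UMIs in all 10186 cells, Ifnk had 1, and Ifng had 34 UMIs in 16 cells. Under receptor blockade 81 of 292 pairs of list gene and label were called, 11 higher and 70 lower (10% and 9.89% of all genes in the labels with a tested member).

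**Figure D5:**
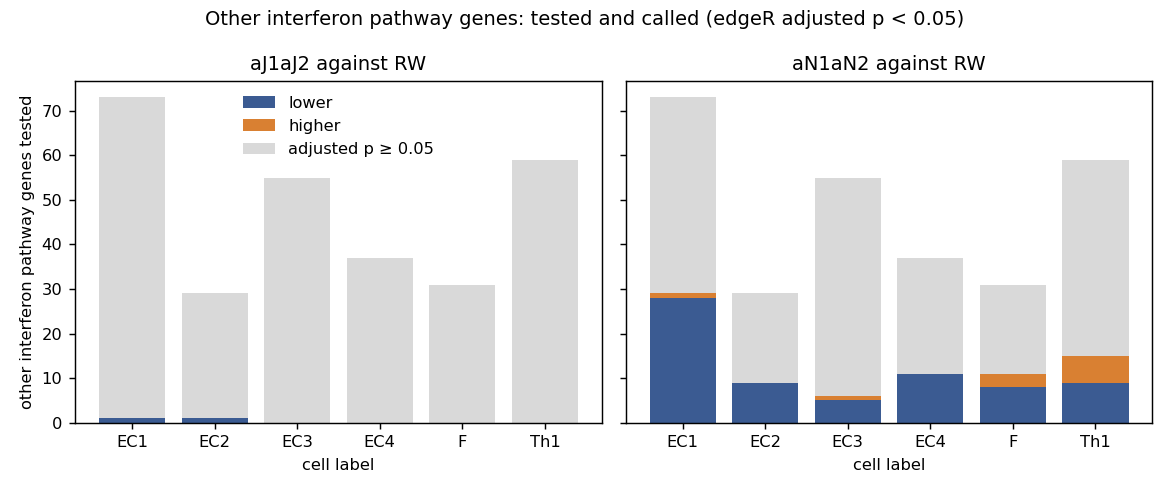
Number of genes of the 7 other interferon pathway lists that were tested in 6 labels, split into called lower (blue), called higher (orange) and not called (grey), for aJ1aJ2 against RW (left) and aN1aN2 against RW (right). In EC1 28 of 73 were lower and 1 higher under receptor blockade, against 1 lower under ligand blockade.

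In EC1 each list with a tested gene held at least 1 gene called lower. For sensors and for brakes this was a single gene of 5, too few to set against the share over all genes. Lower were 9 of 12 interferon gamma GTPases and chemokines, 10 of 36 other type I genes (1 was higher), 4 of 5 receptor genes, 3 of 10 relay genes, 1 of 5 sensors and 1 of 5 brakes, with a median log2 change of -0.71 over the 73 genes tested. Of all genes in EC1 8.93% were lower and 8.83% higher. Gbp4, a guanylate-binding GTPase, had 61.2, 219 and 114 CPM in RW, 92.9, 82.4 and 90.9 in aJ1aJ2, and 27.4, 26.8 and 28.6 in aN1aN2 (log2 -2.23, SE 0.42, edgeR adjusted p = 0.000524). Rtp4, whose RW profile was among the closest to the members, fell from 89.1, 146 and 125 to 27.4, 37.5 and 47.7 (log2 -1.71, SE 0.32, edgeR adjusted p = 0.000497). Gbp3 (log2 -1.99) and Ifi44 (log2 -1.72) fell likewise. Oas1a, a sensor enzyme of double-stranded RNA, had 59 UMIs in RW EC1 cells, 26 in aJ1aJ2 and 0 in the 264 aN1aN2 cells (edgeR adjusted p = 0.00486). In EC2 6 of 7 interferon gamma genes were lower; Iigp1, an immunity-related GTPase, had 425 and 903 CPM in RW, 368 and 243 in aJ1aJ2, and 90.1, 135 and 47.3 in aN1aN2 (log2 -2.72, SE 0.42, edgeR adjusted p = 0.000436). In EC2 as a whole 9 of 29 pathway genes were lower and 0 higher (all genes 6.62% and 8.85%). In EC4 11 of 37 were lower and 0 higher (9.93% and 11.2%), and in EC3 5 of 55 were lower and 1 higher (2.41% and 3.51%).

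Thyrocytes and fibroblasts were more mixed. In Th1 9 of 59 pathway genes were lower and 6 higher (all genes 17.3% and 17.1%), shares below the background. In F 8 of 31 were lower and 3 higher (10.6% and 9.17%). Phf11c in Th1 had 3.11, 2.02 and 2.15 CPM in RW, 1.08, 1.16 and 2.33 in aJ1aJ2, and 28.0, 28.5 and 29.0 in aN1aN2 (log2 3.48, SE 0.28, edgeR adjusted p = 3.53e-07). Ifit2, a neighbour of Ifit1 and Ifit3 in the same family, had 2.66, 2.70 and 5.66 in RW, 3.23, 7.68 and 27.4 in aJ1aJ2, and 14.8, 16.4 and 21.8 in aN1aN2 (log2 2.09, SE 0.57, edgeR adjusted p = 0.00973). Cmpk2, whose gene lies beside Rsad2, fell in the same cells (log2 -2.32, SE 0.49, edgeR adjusted p = 0.00189). In F, Ifitm1 rose from 69.2, 87.97 and 185 CPM to 448, 192 and 713 (log2 1.99, SE 0.37, edgeR adjusted p = 0.000899).

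Under ligand blockade 0 of 348 pathway pairs were higher and 2 lower (0.334% and 0.33% of all genes in the labels with a tested member), a share near the background. The 2 were Ifngr2 in EC1, a chain of the interferon gamma receptor, with 128, 113 and 94.5 CPM in RW and 83.1, 40.9 and 53.2 in aJ1aJ2 (log2 -1.01, edgeR adjusted p = 0.0198, with 0.886% of all genes lower in EC1), and Gbp3 in EC2, with 160 and 280 against 69.5 and 69.9 (log2 -1.57, edgeR adjusted p = 0.0363). Between the blockades 47 of 305 pairs were lower and 9 higher in aN1aN2 (6.52% and 6.42% of all genes in the labels with a tested member).

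Other measures moved with the EC1 result. The summed level of 6 macrophage markers in EC1 was 85.4 to 224 CPM in RW, 26.3 to 42.4 in aJ1aJ2 and 0 to 9.55 in aN1aN2, all 6 being detected. Without the cells outside M that held at least 3 C1q UMIs (110 cells, 1.08% of all), the EC1 changes were -1.46 for Isg15 (edgeR adjusted p = 3.77e-05), -1.52 for Irf7 (0.000344) and -1.33 for Bst2 (5.75e-05). The summed level of the 5 endothelial markers in EC1 was 8967 to 9260 CPM in aN1aN2, below RW and below aJ1aJ2 (10535 to 13510), and its part in the members' falls was not tested. The summed level of 5 erythroid markers in EC1 overlapped between groups, at 4029 to 21925 CPM in RW, 548 to 11323 in aJ1aJ2 and 2371 to 7907 in aN1aN2. In Th1 the endothelial sum was 371 to 499 CPM in RW, 200 to 422 in aJ1aJ2 and 81.0 to 384 in aN1aN2, and the macrophage sum 45.9 to 109, 15.8 to 250 and 1.82 to 79.8. Of the Th1 calls, Bst2 was kept without the cells holding macrophage RNA (log2 -0.80, edgeR adjusted p = 0.00636), while Isg15 (0.209) and Ifitm3 were not; the part of endothelial RNA was not tested.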

How the data were processed

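The authors deposited a table of raw UMI counts per gene and cell and an annotation of the cells, made from 10x Genomics 3' v2 libraries. Cell Ranger and GRCm38 are named in the submitters' processing notes, and how the cell labels were made is not given in the sources used here. Every value was a whole number. Ensembl identifiers were matched to symbols for 52403 of 52636 genes.

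Counts were summed per sample and label. Sums of at least 20 cells were fitted once per label, all groups together, in edgeR 4.0.16 (R 4.3.3; quasi-likelihood) after filterByExpr and TMM. A comparison needed 2 samples in each group, except with a sample left out, where 1 was enough and the other groups gave the spread. SE is the log2 change divided by the root of the F statistic. A gene was called at an adjusted p (Benjamini-Hochberg, over the label's genes) under 0.05. No cells were removed as doublets; counts were not corrected for free RNA. Intervals cover counting error only.

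On simulated EC1 counts (9165 genes, aN1aN2 against RW), 47.5% of genes changed by a log2 of 1 and 86.5% of those changed by 2 were recovered. The shares were 49.5% and 92.4% on simulated EC4 counts and 36.1% and 91.5% on simulated F counts. False calls were 6 of 136 in EC1, 2 of 132 in EC4 and 5 of 126 in F.

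The members, the other gene lists and the naming rule (all 9 members, plus up to 5 called pathway genes per label by size of change) were chosen with earlier results of these data known. Alternatives were DESeq2 1.42.0 or its size factors, no count filter, 10 or 50 cells, only the groups compared, no cells with macrophage RNA, the title number range, a replicate block and leaving out each sample. Leaving out the cell with most UMIs of a gene was added after seeing the data.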

Additional observations from a re-analysis of the deposited data

Results flagged for a closer look

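The changes of 2 members differed between EC1 endothelium and Th1 thyrocytes under receptor blockade, by the edgeR test of the difference itself. Ifit3 had an EC1 change minus Th1 change of -1.84 (adjusted p = 0.0239): the EC1 log2 change was -0.42, not past the test, and Th1 rose by 1.41. Ifi27l2a had 3.41 (adjusted p = 0.0381): EC1 changed by 0.19, not past the test, and Th1 fell by 3.49. In Th1 a single cell held 37.3% (Ifit3) and 41.6% (Ifi27l2a) of the UMIs of the higher group, and without it the differences were -1.28 (adjusted p = 0.0964) and 2.33 (adjusted p = 0.075).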

How the results depend on the processing

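Of 22 calls under receptor blockade, 8 were kept in every processing alternative: Isg15, Irf7 and Bst2 in EC1, Bst2 in EC2, EC3, F and Th1, and Ifi27l2a in F. Of the 2 under ligand blockade none was, and of the 7 between the blockades 3 were. Over 570 alternatives of the results named in the text, which go beyond these called pairs, 466 gave the same result, 104 a weaker one and 0 reversed. Counts of calls ranged from 13 (without aN1aN2 3) to 22 with single samples left out under receptor blockade, with 14 without RW 2, aN1aN2 1 or aN1aN2 2, and from 2 to 6 under ligand blockade (6 without RW 1, 4 without RW 3 or aJ1aJ2 1; of these, 4 without RW 1 and 2 without RW 3 were gained in EC2 or S with a single RW sample). Ligand blockade gave 13 calls with no count filter, 1 with DESeq2 and with 10 or 50 cells as minimum, and 4 with the title number range as covariate (2 gained in S, with 1 RW sample in each range). The direct comparison gave 15 with no count filter. The EC1 minus Th1 difference gave 0 calls with DESeq2, 1 without cells holding macrophage RNA and 0 to 2 with samples left out for receptor blockade (0 without aN1aN2 2, 1 without RW 2, RW 3, aN1aN2 1 or aN1aN2 3), and for ligand blockade 1 with no filter and 0 to 1 with samples left out (1 without aJ1aJ2 3 or aN1aN2 2). Why counts moved was not tested. With numbers 1 and 2 shared by RW and aN1aN2 as a replicate block there were 19 calls; same-numbered samples did not deviate together (r = 0.0035 and 0.0131 in EC1), so they were not treated as pairs. Without the cell with most UMIs, 16 of 22, 2 of 2 and 6 of 7 calls remained. Under receptor blockade those lost were Ifi27l2a in EC2, Irf7 and Isg15 in EC3, Isg15 in Eryth2, and Ifit3 and Ifitm3 in Th1. Between the blockades it was Isg15 in Th1. How far low counts limited the calls, for members at a few CPM and in labels with 20 to 60 cells a sample, was not tested. M in aN1aN2 held 22 cells, under 20 in every sample, so no member could be compared there.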

Other observations

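Labels with too few aN1aN2 cells for a test held some members in single groups. The 22 M cells of aN1aN2 held 96665 UMIs, with 26 of Ifi27l2a (269 CPM, 95% Poisson interval 176 to 394), 13 of Bst2 (134 CPM, 71.6 to 230) and 66 of Ifitm3 (683 CPM, 528 to 869), and with 0 of Isg15, Ifit1, Irf7 and Rsad2, where 3 counts would be 31.0 CPM. These values are UMIs relative to the unscaled total, not after TMM as in the other levels. The intervals cover counting error only, and no comparison with RW was made.

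The interferon gamma GTPases and chemokines held the response element core in 10 of their 13 promoters (76.9%) and the gamma-activated core in 6 (46.2%), against 16 (34.0%) and 7 (14.9%) of 47 promoters of the other type I list. These are counts of letters in a window of 300 bases, and no test was made.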
